A study of Danio rerio with 35 samples.

Results

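Macrophages and neutrophils are the phagocytes of the zebrafish heart, and the genes described here are markers of these cells, of leukocytes in general, of the complement proteins macrophages make and of the oxidase with which phagocytes kill microbes. A list of 49 such genes was read by symbol in a count table of 14781 genes, and 41 of them were found. The other 8 (ptprc, laptm5, btk, hck, vav1, csf1rb, marco and cd68) had no row under that symbol and were not analysed here. Of the 41, 37 had enough counts to be tested and 4 (tyrobp, itpr3, grn2 and tnfa) did not. The libraries are polyadenylated RNA of whole hearts of adult zebrafish, 4 labelled WT and 4 labelled klf1 overexpressing, called WT and klf1 hearts here. Klf1 is a zinc-finger transcription factor known from red cell development, and the title of the series asks about renewal of adult heart muscle cells. The labels give no age beyond adult, no strain or sex, and neither the promoter, the cells nor the duration of overexpression. They also do not say whether each library came from its own fish or from pooled hearts, so the p-values below measure only the spread between libraries, which may be technical.

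Both phagocyte lineages arise from blood progenitors under the transcription factor Pu.1, for which zebrafish carry the gene copies spi1a and spi1b. csf1ra encodes a growth factor receptor of macrophages, and csf3r the G-CSF receptor of neutrophils. csf1rb, also listed, had no row. The zebrafish heart holds resident macrophages, and after injury macrophages and neutrophils enter it and take part in clearing debris and in scar turnover. In RNA of a whole organ, more cells of a type and more RNA per cell cannot be told apart, and this holds for every value below.

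The libraries held between 9829896 and 13083853 counts. Levels are in CPM, a gene's counts relative to the library total, scaled by edgeR's TMM factors, which correct for a few very abundant genes taking a changing share of a library. On this scale 3 counts come to between 0.179 and 0.378 CPM in a library. For counting error alone, 3 counts are a rough upper confidence limit, not a maximum, of the true level behind a count of 0. Differences are log2 fold changes, klf1 minus WT, with standard errors (SE), and a gene was called at an adjusted p under 0.05 of edgeR's quasi-likelihood test over 10493 genes. klf1 itself read 174, 268, 296 and 128 CPM in WT and 595, 655, 733 and 602 CPM in klf1 hearts. WT library 3 and klf1 library 1 stood apart from their groups on the second principal component, which held 4.82% of the variance. They did so in the same direction, at -34.6 and -23.3, while the other libraries had positive values.

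Most phagocyte genes were higher in klf1 hearts, by factors of about 2.5 to 8.42, and most showed no overlap between the genotypes. Of the 37 tested, 31 were called higher, 1 lower and 5 not called. The same 31 were called higher when WT library 3 and klf1 library 1 were left out. Over all tested genes 32.2% were called higher and 29.4% lower. The median log2 fold change was 2.03 for the phagocyte genes and 0.03 for all tested genes. All 31 that rose did so by at least 1 on the log2 scale, which 18% of all tested genes did, and the 1 that fell did so by more than 1, as did 15.4%. For 27 of the 37 every klf1 library lay above every WT library, against 29.8% of all tested genes. The counts of each role group below are to be read beside these shares of all tested genes. The genes and role groups were chosen with earlier results of these data known, so an excess over these shares is no separate support. In 34 of the 37 all 4 WT libraries also passed the level the filter asks for, so only 3 (lect2l, il1b and tnfb) entered the test through the klf1 libraries alone. Without TMM scaling, the 41 genes together took between 0.0383 and 0.0505% of the counts in WT libraries. In klf1 libraries they took between 0.179 and 0.233%. On the TMM scale their summed level was 488 to 661 CPM in WT and 1460 to 1770 CPM in klf1 libraries.

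**Figure D1:**
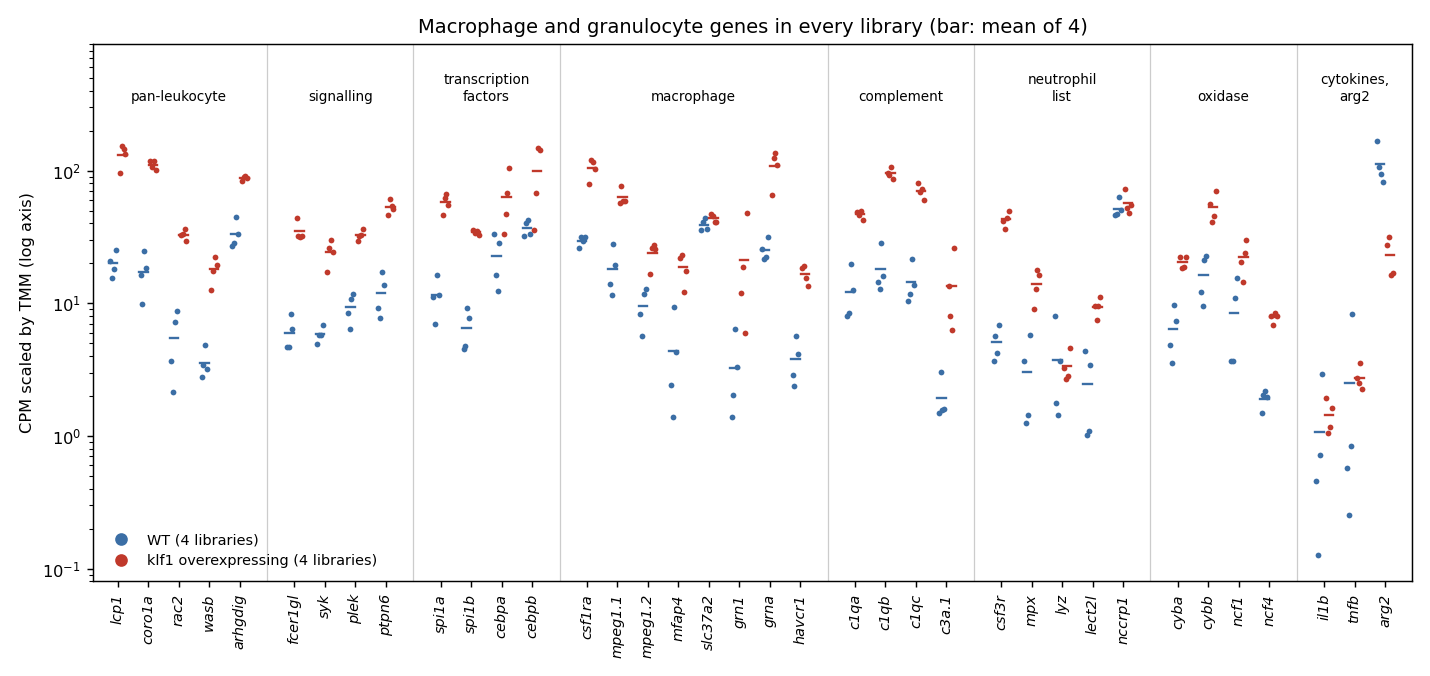
Level of each tested gene in every library, in CPM scaled by TMM on a log axis, in role groups; points are single libraries (WT blue, klf1 red) and bars are means of 4. Red points lie above all blue points for 27 of 37 genes, arg2 is lower in red, and the other 9 overlap, among them lyz, slc37a2, nccrp1, il1b and tnfb.

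These calls were also made on another scale. Scaled by library totals alone, the median of all tested genes moved to 0.75 and that of the phagocyte genes to 2.75. On that scale 6836 of the 10493 tested genes were called higher and 1398 lower. The same 31 genes were called higher, arg2 was still called lower, and slc37a2 and nccrp1 were added to the higher calls.

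**Figure D2:**
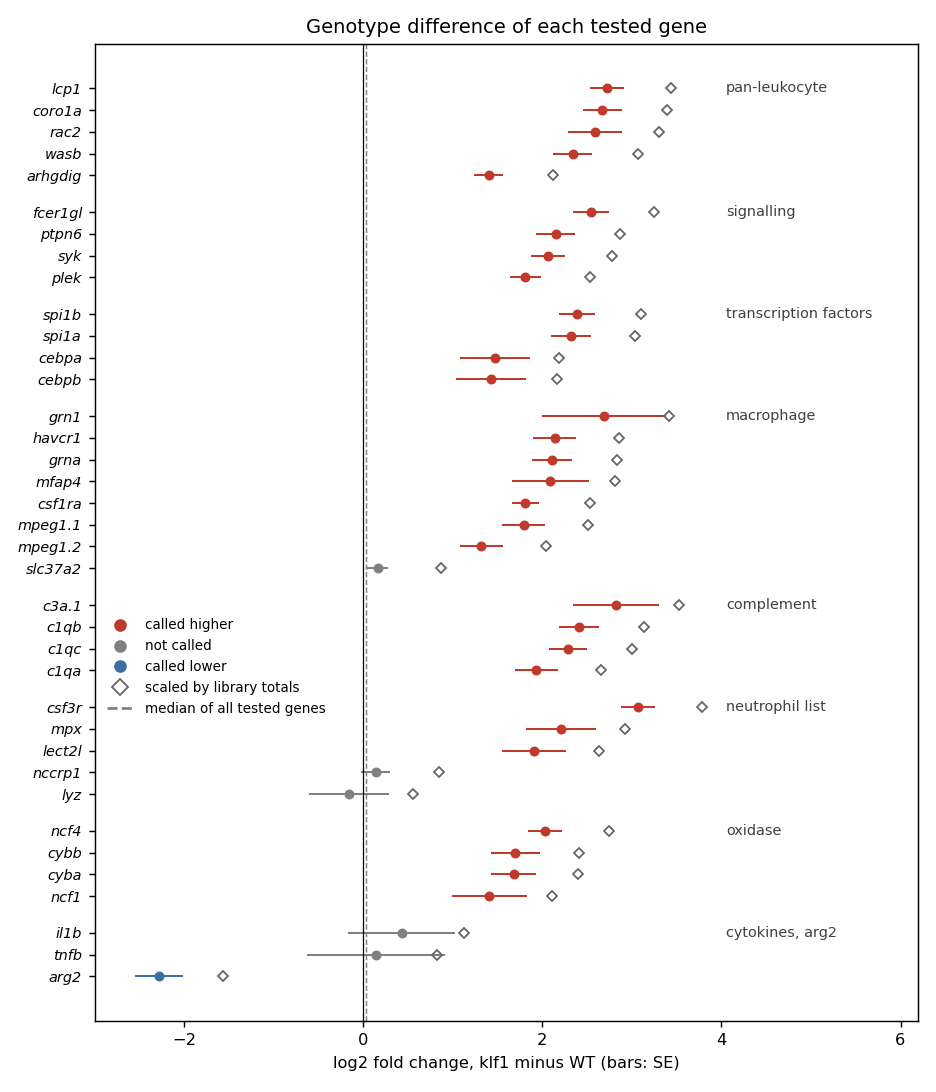
Log2 fold change of each tested gene (klf1 minus WT) with its SE, coloured by call; open diamonds give the value with library totals and the dashed line the median of all tested genes, 0.03. Values of called genes run from -2.28 for arg2 to 3.07 for csf3r.

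Genes that leukocytes of many kinds share rose together. All 5 tested (of 7 listed) were called higher, with a median log2 fold change of 2.59. lcp1, the actin-bundling L-plastin, read 20.9, 15.5, 18.2 and 25.2 CPM in WT and 95.4, 152, 146 and 134 CPM in klf1 hearts. Its lowest klf1 library stood far above its highest WT library, a difference of 2.72 ± 0.19 (SE) with an edgeR adjusted p of 2.79e-07. coro1a, an actin regulator of leukocytes, went from 16.2, 9.82, 24.6 and 18.6 to 118, 106, 118 and 101 CPM (2.67 ± 0.22, edgeR adjusted p = 9.17e-07). The small GTPase gene rac2, needed for neutrophil movement and for the oxidase, read 3.68, 2.14, 7.24 and 8.7 CPM in WT and 32.5, 33, 36.5 and 29.4 CPM in klf1 hearts. Its WT libraries differed among themselves by a wide margin while its klf1 libraries lay close together, and the change was 2.59 ± 0.3. wasb, a homolog of the Wiskott-Aldrich protein that drives actin branching, spanned 2.76 to 4.83 CPM in WT and 12.6 to 22.4 CPM in klf1 hearts, a 5.08-fold rise. The smallest rise was that of arhgdig, a GDP-dissociation inhibitor of small GTPases, from 26.8, 28.3, 44.6 and 33.1 to 83.9, 88.7, 91.1 and 87.3 CPM (1.4 ± 0.16, edgeR adjusted p = 1.02e-05).

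Of the receptor-proximal signalling genes, all 4 tested (of 9 listed, 6 found) rose, with a median of 2.11. fcer1gl, an adaptor that couples Fc and other receptors to kinases, read 4.72, 4.66, 8.32 and 6.37 CPM in WT and 44, 32.3, 31.4 and 32.1 CPM in klf1 hearts (2.54 ± 0.2, edgeR adjusted p = 6.29e-07). The kinase syk, which such adaptors recruit in mammals, went from 4.95, 5.79, 5.79 and 6.86 to 17.2, 26.1, 29.8 and 24.5 CPM (2.06 ± 0.19). ptpn6, the phosphatase Shp1 that restrains such signals, went from 9.21, 7.68, 17.1 and 13.7 to 46.1, 61, 53.7 and 51.6 CPM (2.15 ± 0.22). Thus the kinase and the phosphatase rose by amounts that differ by less than their standard errors. plek, the protein kinase C substrate pleckstrin, spanned 6.42 to 11.8 CPM in WT and 29.7 to 36.4 CPM in klf1 hearts, a 3.51-fold rise. The related adaptor tyrobp held 0 to 2 counts in WT and 1 to 4 in klf1 libraries, and was not tested. itpr3, a calcium release channel of the endoplasmic reticulum found in many cells, held 2, 2, 5 and 8 counts in WT and 8, 18, 17 and 20 in klf1 libraries, below the filter.

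The transcription factors split by their spread, not by their direction. spi1a read 11.2, 6.93, 16.4 and 11.6 CPM in WT and 46.3, 62.6, 66.5 and 55 CPM in klf1 hearts (2.32 ± 0.22, edgeR adjusted p = 2.67e-06). spi1b read 4.49, 4.79, 9.17 and 7.72 CPM in WT and 35.4, 33.8, 35 and 32.7 CPM in klf1 hearts (2.39 ± 0.2, edgeR adjusted p = 1.06e-06). Both Pu.1 copies rose by nearly the same factor, and the ratio of spi1a to spi1b counts within a library was 1.81 ± 0.477 in WT and 1.69 ± 0.269 in klf1 hearts (SD, n = 4). cebpa, a factor of granulocyte formation that other tissues also use, read 33.4, 16.2, 12.4 and 28.6 CPM in WT and 33.1, 47.3, 67.5 and 104 CPM in klf1 hearts. cebpb, induced in myeloid cells and in many other cells under stress, read 31.9, 40.3, 42.1 and 33 CPM in WT and 35.6, 67.9, 149 and 142 CPM in klf1 hearts. For both, klf1 library 1 lay within the WT range and libraries 3 and 4 far above it. They were called higher (cebpa 1.47 ± 0.39, edgeR adjusted p = 0.00687; cebpb 1.43 ± 0.39, edgeR adjusted p = 0.00831) although the groups overlapped.

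Macrophage genes rose with 1 exception. Of 8 tested (12 listed, 9 found), 7 were called higher and slc37a2 was not, and the median was 1.95. The summed level of the 9 found went from between 116 and 157 CPM in WT to between 317 and 455 CPM in klf1 hearts. csf1ra, a receptor for the macrophage growth factors, read 26, 31.6, 29.4 and 31.7 CPM in WT and 78.9, 120, 117 and 102 CPM in klf1 hearts. The WT libraries lay within a narrow band, and the rise was 1.81 ± 0.15 with an edgeR adjusted p of 9.82e-07. mpeg1.1, the macrophage perforin, went from 13.9, 11.5, 27.9 and 19.4 to 56.9, 76.7, 58.6 and 58.7 CPM (1.79 ± 0.24). Its paralog mpeg1.2 went from 8.29, 5.67, 11.7 and 12.7 to 16.6, 26.3, 27.6 and 25.5 CPM (1.32 ± 0.24). How reads of such close copies were assigned is not given in the sources used here, so the split between the copies is uncertain, and the same holds for mfap4, for grn1 and grn2 and for c3a.1.

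The remaining macrophage genes differed in how evenly they rose. havcr1, a Tim-family receptor for dying cells, read 2.88, 2.39, 5.67 and 4.17 CPM in WT and 18.6, 19.1, 15.6 and 13.5 CPM in klf1 hearts (2.14 ± 0.24, edgeR adjusted p = 9.2e-06). grna, encoding progranulin, went from 25.5, 21.4, 22.2 and 31.5 to 65.1, 124, 135 and 110 CPM (2.11 ± 0.22, edgeR adjusted p = 5.66e-06). mfap4, a macrophage marker of zebrafish, spanned 1.39 to 9.41 CPM in WT and 12.1 to 23.1 CPM in klf1 hearts (2.09 ± 0.43). Its value was 1.79 without WT library 2 and 2.77 without WT library 3. These 3 kept the genotypes apart, but the small granulin gene grn1 did not. Its WT libraries read 1.38, 2.02, 6.39 and 3.31 CPM and its klf1 libraries 12, 18.9, 5.94 and 47.5 CPM, so that klf1 library 3 fell inside the WT range (2.69 ± 0.69, edgeR adjusted p = 0.00681). Its value was 1.91 without klf1 library 4, 3 without klf1 library 3 and 3.24 without WT library 3, and its call stood each time. Its neighbour in name, grn2, held 0 to 3 counts in WT and 3 to 8 in klf1 libraries and was not tested.

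slc37a2, a sugar-phosphate exchanger of macrophages and osteoclasts, read 35.4, 41.2, 43.7 and 36.2 CPM in WT and 47.1, 45.7, 40.9 and 40.7 CPM in klf1 hearts. The groups overlapped, and the difference of 0.16 ± 0.12 was not called (edgeR adjusted p = 0.272). With library totals it was called higher at 0.87, close to the median of all genes on that scale. Within each library the csf1ra count was 0.734, 0.768, 0.674 and 0.878 of the slc37a2 count in WT, and 1.67, 2.63, 2.85 and 2.51 times it in klf1 hearts. This ratio needs no scaling, and its WT and klf1 values did not overlap. It sets a gene called higher against 1 not called, so it largely restates those calls and is no separate support.

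All 4 complement genes rose (median 2.35), the 3 chains of C1q by factors of 3.82 (c1qa), 5.3 (c1qb) and 4.88 (c1qc). C1q binds immune complexes and dying cells and is made largely by macrophages. c1qa read 8.06, 8.44, 19.8 and 12.6 CPM in WT and 48.8, 46.6, 49.6 and 42.2 CPM in klf1 hearts (1.93 ± 0.24, edgeR adjusted p = 2.35e-05). c1qb read 14.5, 12.7, 28.6 and 16.1 CPM in WT and 96.3, 92.7, 106 and 86.9 CPM in klf1 hearts (2.41 ± 0.22, edgeR adjusted p = 2.17e-06). c1qc read 10.4, 11.8, 21.6 and 13.8 CPM in WT and 80, 68.8, 72.7 and 59.8 CPM in klf1 hearts (2.29 ± 0.21, edgeR adjusted p = 1.94e-06). All 3 were highest among WT hearts in library 3. The ratio of c1qb to c1qa counts within a library was 1.51 ± 0.22 in WT and 2.04 ± 0.0707 in klf1 hearts (SD, n = 4), and that of c1qc to c1qa 1.22 ± 0.152 and 1.5 ± 0.0964. Neither ratio overlapped between the genotypes, though for c1qc the nearest libraries were at 1.4 and 1.42. Whether the chains rose by different factors was not tested. c3a.1 encodes a form of C3, the central complement protein, best known as a liver product. It read 1.5, 3.02, 1.57 and 1.59 CPM in WT and 13.6, 8.08, 6.28 and 26.2 CPM in klf1 hearts (2.82 ± 0.48, edgeR adjusted p = 0.000347). Its klf1 libraries spread far more than those of the C1q chains, and without klf1 library 4 the value was 2.28.

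Neutrophil genes parted from each other, 3 of the 5 tested being called higher and 2 not called. Of all tested genes 32.2% were called higher. csf3r rose furthest of the 37 tested genes on the TMM scale, from 3.68, 5.67, 4.22 and 6.86 to 41.8, 36.3, 44.1 and 49.8 CPM (3.07 ± 0.19, edgeR adjusted p = 1.28e-07). mpx, the myeloperoxidase of neutrophil granules, went from 3.68, 1.26, 1.45 and 5.76 to 9.07, 12.9, 17.9 and 16.4 CPM (2.21 ± 0.39, edgeR adjusted p = 0.000359). lect2l, a chemotaxin-like gene of zebrafish neutrophils, went from 4.37, 1.01, 1.09 and 3.43 to 9.52, 7.49, 9.6 and 11.1 CPM (1.91 ± 0.36). All 3 kept the genotypes apart, with klf1 above WT, as did 29.8% of all tested genes. lect2l entered the test through the klf1 libraries alone.

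Lysozyme, lyz, was not called. It read 8.06, 1.76, 1.45 and 3.68 CPM in WT and 3.25, 2.69, 2.83 and 4.64 CPM in klf1 hearts, with the klf1 values inside the WT range (-0.16 ± 0.45, edgeR adjusted p = 0.778). Over the fits leaving out 1 library the value ran from -0.44 (without WT library 3) to 0.54 (without WT library 1). With library totals it was 0.56, beside a median of 0.75 for all tested genes on that scale. lyz was called in none of these fits. Against lyz in the same library, the mpx count was 0.457, 0.714, 1 and 1.57 times as large in WT and 2.8, 4.8, 6.32 and 3.54 times in klf1 hearts. The lect2l to lyz ratio was 0.699 ± 0.181 in WT and 2.87 ± 0.416 in klf1 hearts (SD, n = 4). These ratios need no scaling, and their WT and klf1 values did not overlap. Each sets a gene called higher against 1 not called, so they largely restate those calls and are no separate support. lyz also held only 14 and 12 counts in WT libraries 2 and 3.

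**Figure D3:**
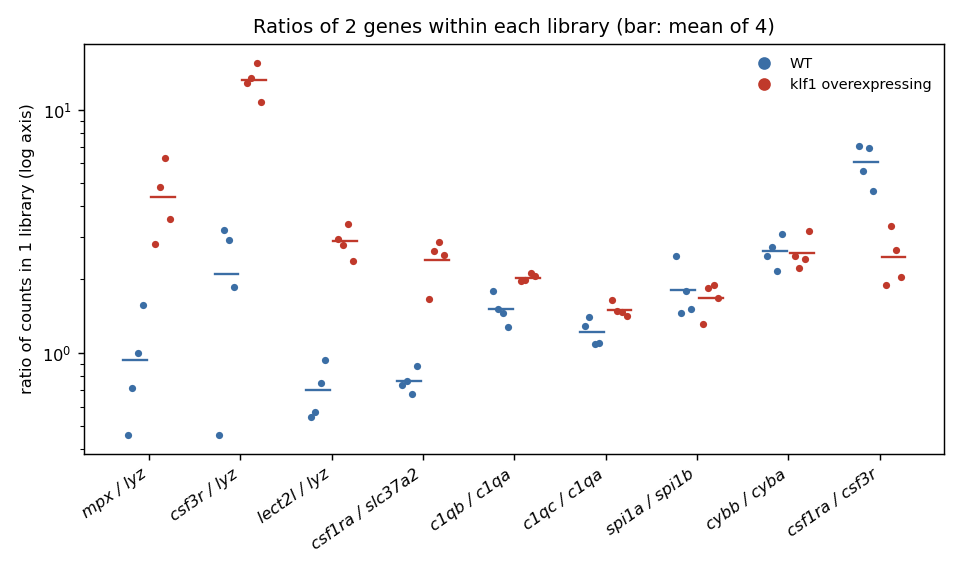
Ratio of the counts of 2 genes within each library, on a log axis; points are libraries (WT blue, klf1 red) and bars means of 4. The 3 ratios to lyz and the ratio of csf1ra to slc37a2 are higher in klf1 hearts without overlap. Those of cybb to cyba and spi1a to spi1b overlap. The ratio of csf1ra to csf3r is lower (6.06 in WT against 2.47 in klf1 hearts on average). It restates the larger log2 fold change of csf3r (3.07) than of csf1ra (1.81). The other neutrophil genes changed by 2.21 (mpx), 1.91 (lect2l), 0.14 (nccrp1) and -0.16 (lyz). Medians were 1.95 for the macrophage and 1.91 for the neutrophil genes. Whether these groups changed by different amounts was not tested.

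nccrp1, listed with the neutrophil genes, is known from fish as a receptor of nonspecific cytotoxic cells. It read 46, 47.1, 62.9 and 50.7 CPM in WT and 72.7, 52, 47.9 and 55 CPM in klf1 hearts and was not called (0.14 ± 0.16, edgeR adjusted p = 0.465). With library totals it was called higher at 0.85, beside a median of 0.75 for all tested genes on that scale.

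The growth factor for csf3r moved the other way. Of the ligands of both growth factor receptors, csf3a, a zebrafish G-CSF gene, read 8.17, 9.07, 10.7 and 6.99 CPM in WT and 0.295, 1.25, 0.345 and 1.13 CPM in klf1 hearts. All klf1 libraries lay below all WT libraries, and the fall was -3.48 ± 0.37 (edgeR adjusted p = 5.78e-06; -2.76 with library totals). csf1a, a ligand of the macrophage receptor, read 3.34, 2.39, 4.83 and 2.82 CPM in WT and 0.959, 2.69, 0.691 and 2.68 CPM in klf1 hearts, and was not called (-0.91 ± 0.42, edgeR adjusted p = 0.0797). The ligand genes csf1b, csf3b and il34 held 0 to 7 counts in any library and were not tested.

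All 4 listed subunits of the phagocyte NADPH oxidase rose (median 1.69). This enzyme makes superoxide from a membrane core, encoded by cybb and cyba, and cytosolic organisers. cybb, the catalytic subunit, read 12.1, 9.57, 21.2 and 22.7 CPM in WT and 56, 41.3, 45.4 and 70.1 CPM in klf1 hearts (1.7 ± 0.27, edgeR adjusted p = 0.00015). cyba, its partner, read 4.83, 3.53, 9.77 and 7.35 CPM in WT and 22.4, 18.6, 18.8 and 22.2 CPM in klf1 hearts (1.68 ± 0.25, edgeR adjusted p = 8.55e-05). The ratio of their counts within a library was 2.62 ± 0.382 in WT and 2.57 ± 0.405 in klf1 hearts (SD, n = 4). Of the cytosolic subunits, ncf4 rose from 1.5, 2.02, 2.17 and 1.96 to 7.97, 6.9, 8.42 and 8.04 CPM (2.03 ± 0.19, edgeR adjusted p = 2.12e-06). ncf1 rose from 3.68, 3.65, 10.9 and 15.6 to 20.6, 14.5, 24.1 and 30.2 CPM (1.41 ± 0.42, edgeR adjusted p = 0.0145), with WT library 4 above klf1 library 2.

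Of the inflammatory cytokines, il1b and tnfb were tested and not called, and tnfa was too low to test. il1b read 0.46, 0.126, 0.724 and 2.94 CPM in WT and 1.92, 1.05, 1.17 and 1.61 CPM in klf1 hearts (0.43 ± 0.6, edgeR adjusted p = 0.554). tnfb read 0.575, 0.252, 0.844 and 8.33 CPM in WT and 2.73, 2.5, 3.52 and 2.26 CPM in klf1 hearts (0.14 ± 0.77, edgeR adjusted p = 0.891). In both genes WT library 4 lay above every klf1 library, and the other 3 WT libraries lay below every klf1 library. Without that library both were called higher, il1b at 1.67 (edgeR adjusted p = 0.0146) and tnfb at 2.26 (edgeR adjusted p = 0.000593). So 1 WT library decided both calls, and the other WT libraries held 1 to 7 counts of each gene. tnfa held 0, 0, 0 and 1 counts in WT and 2, 7, 8 and 9 in klf1 libraries. It was below the filter, and it was called higher when no filter was used (edgeR adjusted p = 0.00635).

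arg2, a mitochondrial arginase that breaks down arginine, was the member that fell. It read 168, 106, 93.9 and 81.6 CPM in WT and 27.7, 31.8, 16.4 and 16.8 CPM in klf1 hearts. Every klf1 library lay below every WT library, which held for 27.2% of all tested genes, and the fall was -2.28 ± 0.27 (4.86-fold, edgeR adjusted p = 1.68e-05). With library totals it was -1.56. arg2 marks neutrophils in infected zebrafish larvae and is also made in other tissues, and which cells of these hearts carried the transcript was not tested.

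Relative to their level, most of these genes varied more between WT libraries than between klf1 libraries. The coefficient of variation over 4 libraries had a median of 35.3% in WT and 18% in klf1 hearts over the 37 genes. The list held fewer counts in WT libraries (3871 to 5480) than in klf1 libraries (19816 to 29741), so counting error weighs more in WT. Its part in this difference was not tested. WT library 3 was the highest WT library for 19 of the 37 and WT library 4 for 13, while WT library 2 was the lowest for 20 and WT library 1 for 14. The groups did not share 1 order. In 5 of 8 macrophage genes and 3 of 4 complement genes WT library 3 was the highest. For mpx, lyz and lect2l instead, libraries 1 and 4 were both above libraries 2 and 3, as they were for mmp9 and mmp13a, proteases on the wider phagocyte list. WT library 4 was the highest for il1b, tnfb and the oxidase genes cybb and ncf1. Among klf1 hearts library 1 was the lowest for 14 of the 37, cebpa and cebpb among them. These are descriptions of 4 libraries a genotype, with no test.

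**Figure D4:**
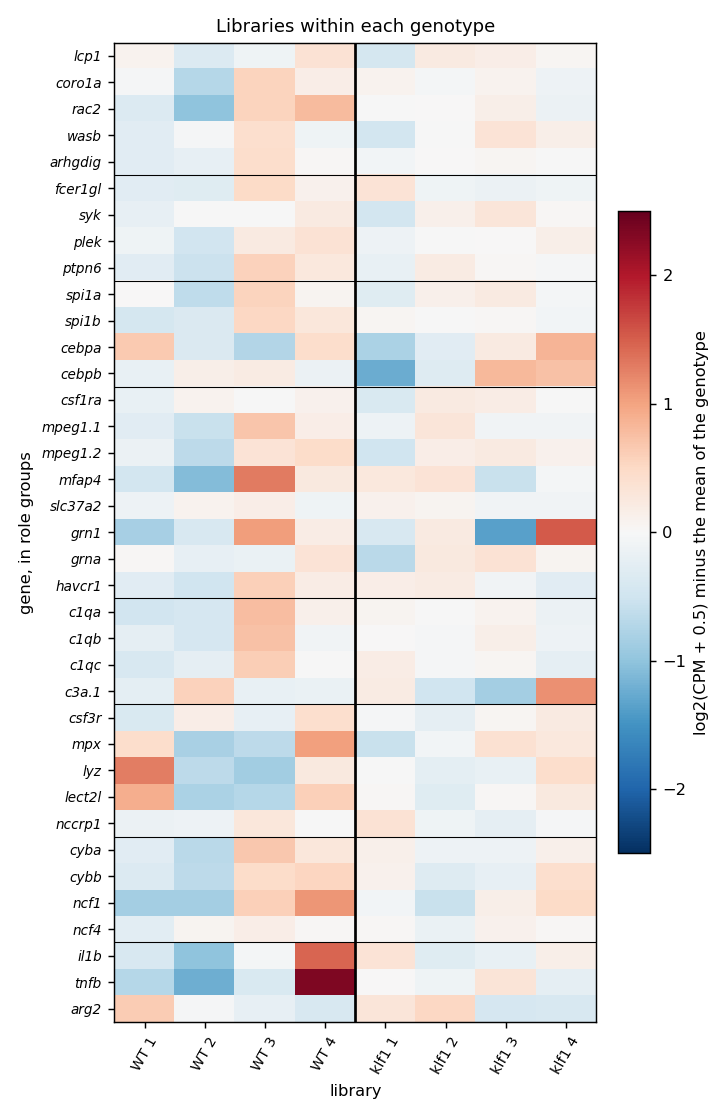
Deviation of each library from the mean of its own genotype, as log2(CPM + 0.5), for the 37 tested genes in role groups (red above, blue below that mean). The WT side is more strongly coloured than the klf1 side, with C1q, mpeg1.1 and mfap4 red in WT library 3, mpx, lyz and lect2l red in WT libraries 1 and 4, and tnfb and il1b red in WT library 4.

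A wider list of phagocyte genes, also chosen with earlier results of these data known, gave a similar picture and is no separate support. Of 56 listed, 37 were found and 31 tested, of which 24 were called higher and 0 lower, with a median of 1.9, beside the 32.2% of all tested genes called higher. Of these 31, 6 entered the test through the klf1 libraries alone, so the count leans upward. arpc1b, a subunit of the actin-branching Arp2/3 complex in blood cells, rose by 2.4 ± 0.17, the unconventional myosin gene myo1f by 2.44 ± 0.18 and the cortactin homolog hcls1 by 2.13 ± 0.17 (edgeR adjusted p at most 7.01e-07 for each). irf8, the factor that steers progenitors to macrophages, rose from 4.14, 4.79, 8.69 and 9.07 to 34.8, 36.3, 48.7 and 34.6 CPM. The 7 not called were lgmn, cxcr4b, stab1, nos2b, irg1, gpr84 and mafba. With library totals, lgmn (0.95), stab1 (0.74), mafba (0.89), cxcr4b (1.53) and gpr84 (1.9) were called higher. On that scale 6836 of the 10493 tested genes were called higher, and the median of all tested genes was 0.75. stab1, a scavenger receptor also found on endothelium, read 171, 161, 123 and 204 CPM in WT and 136, 179, 184 and 173 CPM in klf1 hearts (0.03 ± 0.17). Of the paralogous factor genes mafbb and mafba, mafbb was called higher (2.43 ± 0.2) and mafba was not (0.17 ± 0.24).

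Markers of other cells moved as well in these libraries, where 32.2% of all tested genes were called higher and 29.4% lower. The cell cycle list rose in all 13 tested genes, 4 of them tested through the klf1 libraries alone, its summed level going from 61.3 to 102 CPM in WT to between 1070 and 1460 CPM in klf1 libraries. The cardiomyocyte list summed to between 207000 and 247000 CPM in WT and between 31400 and 47700 CPM in klf1 libraries, with 9 of 10 tested genes lower (7 lower and 1 higher with library totals). The endothelial list had 0 of 12 tested genes higher and 6 lower, with sums of 1370 to 1990 and 1160 to 1550 CPM. The fibroblast and epicardium list had 8 of 13 higher and 0 lower (1410 to 1920 and 2680 to 5660 CPM). What part these shifts had in the phagocyte values was not tested.

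Lists of other blood cells were smaller. On the TMM scale, 32.2% of all tested genes being called higher and 29.4% lower is the share to read them against. Of 14 tested T and NK cell genes, 7 were called higher and 1 lower with a median of 1, and of 4 tested B cell genes 3 were higher and 1 lower. Of these, 10 of the 14 and 2 of the 4 entered the test through the klf1 libraries alone, so these counts and the median lean upward. With library totals 12 of the T and NK cell genes were higher and 0 lower, and 3 of the B cell genes higher and 0 lower. On that scale 6836 of the 10493 tested genes were higher and 1398 lower, the share to read library-total counts against. Their summed levels were 36.1 to 56.5 CPM in WT and 71 to 116 CPM in klf1 hearts for T and NK cells, and 9.78 to 16.7 and 14.8 to 23.5 CPM for B cells. Of the T and NK cell sums, tcf7 alone gave 31, 26, 43.6 and 46 CPM in klf1 libraries and at most 0.252 CPM in WT. Without tcf7 these sums overlap between the genotypes. Called higher were the T cell kinase genes lck (0.96 ± 0.31) and zap70 (2.64 ± 0.59), the cytokine receptor genes il2rga (1.62 ± 0.22) and il7r (1.78 ± 0.31), the factor genes eomesa (1.83 ± 0.41), runx3 (1.14 ± 0.36) and tcf7, and among B cell genes blnk (2.55 ± 0.26), cd22 (1.11 ± 0.27) and swap70a (1.44 ± 0.26). lck and runx3 overlapped between the genotypes, and each lost its call in at least 1 alternative fit. Called lower were tox of the T and NK cell list (-0.95 ± 0.25) and irf4a of the B cell list (-1.35 ± 0.32). In both, all klf1 libraries lay below all WT libraries, as held for 27.2% of all tested genes. Neither was called lower with library totals (tox -0.23, irf4a -0.64). The T and NK cell genes tested and not called were itk, il2rgb, il2rb, gata3, tbx21 and sla2. zap70 held 0 to 6 counts in WT and 18 to 51 in klf1 libraries. The untested T and NK cell genes cd8a, cd247, cd247l, rag1, rag2, ccr7 and bcl11ba held at most 26 counts in any library (cd247l). The B cell factor pax5 held at most 8. tcf7, a T cell and Wnt pathway factor, went from 1 to 2 counts in each WT library to between 396 and 772 in klf1 libraries. The erythroid list had 0 of 7 tested genes higher and 4 lower, with sums of 1660 to 2370 and 1270 to 1830 CPM. The thrombocyte list had 1 of 4 higher and 1 lower, with sums of 64.3 to 107 and 53.1 to 84.1 CPM, and its lower call was not made with library totals. With library totals the erythroid list had 2 genes higher and 0 lower and the endothelial list 5 higher and 1 lower, so no erythroid fall and 1 of the 6 endothelial falls, that of the angiopoietin receptor gene tek (-1.44 ± 0.16, and -0.72 with library totals), was called on both scales. The part of other blood cells in the genes that leukocytes share was not tested.

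**Figure D5:**
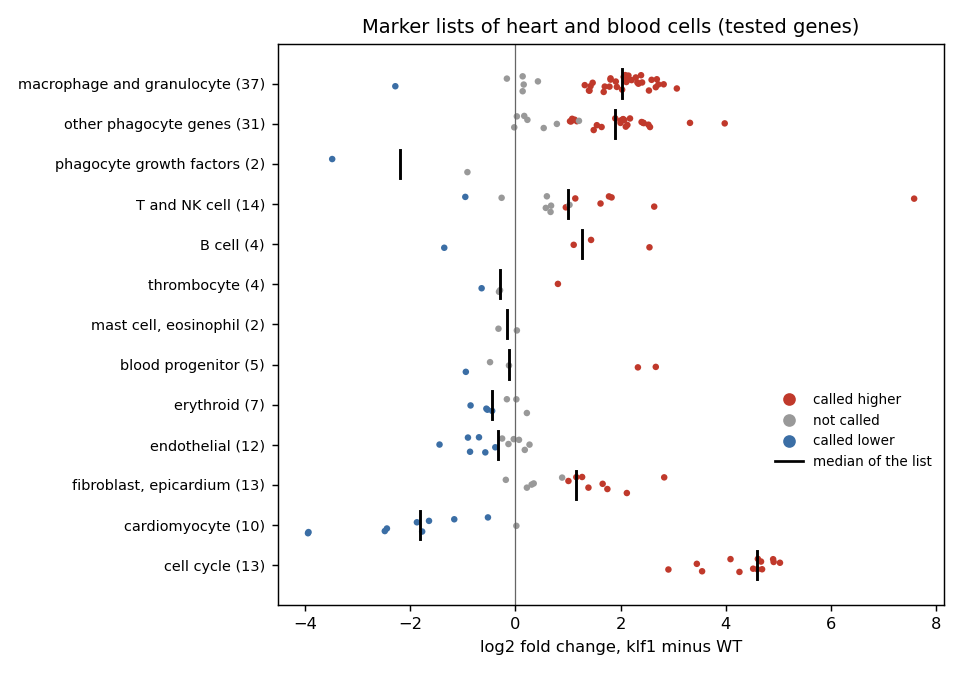
Log2 fold change (klf1 minus WT) of each tested gene in the macrophage and granulocyte list and in 12 other lists of heart and blood cells, with the number tested in brackets; colours give the call and black bars the median of a list. The macrophage and granulocyte list and the wider phagocyte list lie around 2, and the cell cycle list around 4.6. The cardiomyocyte, endothelial and erythroid lists have medians below 0 on the TMM scale (the latter 2 above 0 with library totals). Medians below 0 are also those of the phagocyte growth factor (-2.2), thrombocyte (-0.3), mast cell and eosinophil (-0.15) and blood progenitor (-0.12) lists. Of these, all but the growth factor list are above 0 with library totals. The blood progenitor list had 2 of 5 tested genes called higher and 1 lower, and 2 of the 5 entered the test through the klf1 libraries alone. The growth factor list had 0 of 2 higher and 1 lower. Of all tested genes 32.2% were called higher and 29.4% lower.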

How the data were processed

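The authors deposited whole-number counts per gene and library, not normalized and not pooled. Each of the 8 single-library files equalled a column of the joint table. Per the submitters' processing notes, danRer10, Bowtie2 2.2.8 and deepTools 3.1.2 were used, in no stated role. Not given in the sources used here: the RNA aligner, counter, annotation and strand option. Libraries were stranded mRNA preparations, per the labels' protocols. The other 27 of 35 samples (methylation, chromatin) were not used here.

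In R 4.3.3, genes passing edgeR's filterByExpr (4 libraries at 0.904 CPM or more, before TMM scaling) were scaled by TMM and tested with edgeR 4.0.16 (glmQLFit, robust; glmQLFTest, two-sided) with genotype as the only term; p-values were Benjamini-Hochberg adjusted over 10493 genes. The SE was taken as the log2 fold change over √F. No 2 libraries of 1 genotype agreed within counting error (chi-square over its degrees of freedom, 6.71 to 45.7), so all 8 were kept as separate. Replicate numbers follow accession order and are the same as the numbers 1 to 4 in the column headers; nothing in the labels says that they pair libraries.

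Alternatives were other scalings, filters, DESeq2 1.42.0, limma-voom (limma 3.58.1) and leaving out libraries. Members, role groups and the wider lists were chosen with earlier results of these data known, so no list was tested as a set. Every member is named. The rule gave values in every library to up to 4 members per role group by adjusted p and up to 2 by level. It also covered each tested member not called or lower. Outside that rule, the tested members rac2, mpeg1.2 and grn1 also have all values, while wasb and plek have ranges only. Of the wider lists, the rule named the 3 genes with the smallest adjusted p in the phagocyte list. Other genes of the wider lists, such as irf8, lck, zap70, tek, mmp9, mmp13a, stab1, mafba, mafbb, cd8a, rag1 and pax5, were named after their values were seen. No sequences were used here, so promoter motifs were not searched.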

Additional observations from a re-analysis of the deposited data

Results flagged for a closer look

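In 4 of the 74 sets of 4 libraries (37 tested genes in each of the 2 genotypes), 1 library stood far from the other 3, by a rule that chance meets in about 1 set in 20. tnfb read 8.33 CPM in WT library 4 and at most 0.844 CPM in the other WT libraries, and its call changes without that library. c3a.1 read 3.02 CPM in WT library 2 and at most 1.59 CPM in the others. fcer1gl read 44 CPM in klf1 library 1 against 31.4 to 32.3 CPM in the others. mpeg1.1 read 76.7 CPM in klf1 library 2 against 56.9 to 58.7 CPM in the others. c3a.1, fcer1gl and mpeg1.1 stayed called higher in each of 17 alternatives.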

How the results depend on the processing

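The 31 members called higher were called higher in each of 17 alternatives, and arg2 was called lower in each. With library totals, 6836 of all tested genes were higher and 1398 lower, and the medians became 0.75 for all genes and 2.75 for the members. The median of all genes was 0.01 with DESeq2 size factors and 0.11 with upper-quartile factors. The count of cytokine and arg2 members called higher, 0 in the main result, was 1 with no filter (tnfa) and, over the fits leaving out 1 library, between 0 and 2, reaching 2 without WT library 4 (il1b and tnfb). itpr3, with 0 WT libraries over the filter level, passed the filter in some fits that left out libraries. Among these it was called higher only without WT library 4 and without klf1 library 1. Leaving out WT library 3 and klf1 library 1 together, chosen after seeing the data, left 31 members higher. tnfb had no DESeq2 adjusted p. The column headers number the libraries 1 to 4 in both genotypes, while the labels number them 1 to 8. With that number as a replicate block, a fit added after seeing the data, 31 members were higher and 1 lower, and 3215 genes were higher and 2896 lower. Deviations of same-numbered libraries correlated across genes at -0.0788, 0.079, -0.187 and 0.0933, so the numbers are not taken as pairs. WT library 3 and klf1 library 1 correlated at 0.336, the highest of any WT and klf1 pair. Whether these libraries share a technical factor was not tested. Depth limits tyrobp, grn2, tnfa and itpr3, which held at most 20 counts in a library.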
